A study of Mus musculus with 12 samples.

Results

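The mRNAs of 10 apolipoprotein genes were followed in the livers of ageing mice: Apoa1, Apoa2, Apoa4, Apoa5, Apob, Apoc1, Apoc3, Apoe, Apoh and Apom. These 10 members were taken by name from the 53465 genes of the RNA-seq count table, whose Ensembl identifiers were matched to GENCODE M21 symbols. The rule uses no expression value, although the genes were listed with earlier results of these data known. The table held 12 livers of C57BL/6N mice, each from a separate animal, with 4 young livers at 3 months, 4 middle-aged livers at 12 months and 4 aged livers at 18 months. This is 1 liver per age more than the design text of the series counts, and all labelled livers were used. The labels name no treatment and no genetic change in any group, so the groups differed by age alone as far as the labels say, and they do not give the sex of the animals. The gene counts per liver ran from 8124312 to 10527159 reads, and every member had at least 268 reads in every liver.

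Apolipoproteins are the protein part of the particles that carry fats and cholesterol through blood. The liver secretes triglyceride-rich very-low-density lipoprotein (VLDL) around apolipoprotein B, and it supplies the A-type proteins on which high-density lipoprotein (HDL) is built. Smaller exchangeable apolipoproteins move between particles, where they switch lipases on or off and act as ligands for uptake receptors.

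The hepatocyte origin of the tissue was checked on 10 hepatocyte markers. Their summed level, in CPM, was 75270 to 93670 in the young, 94730 to 98930 in the middle-aged and 88830 to 113100 in the aged livers. Most of this sum came from Alb, with a mean of 594860 normalised counts beside 62282 for Ahsg, the next. None of the 10 passed between aged and young livers by DESeq2 or edgeR, and their median log2 difference was -0.161. An unadjusted p under 0.05 by DESeq2 was found for 3, Alb (0.31), Ass1 (-0.29) and Tat (-0.54). Intestine is the other main source of Apoa4, Apob and Apoa1 mRNA in mice. Of the 7 intestinal markers listed, 6 had any count, and their summed level was 53.21 to 77.71 CPM in the young, 42.43 to 64.86 in the middle-aged and 64.22 to 101.3 in the aged livers. Most of it came from the fatty acid-binding protein gene Fabp2, with a mean of 596.69 normalised counts, and the galectin gene Lgals4 had 17.82. The homeobox gene Cdx2, the adhesion gene Cdh17 and the mucin gene Muc2 had at most 3 counts in every liver. No intestinal marker was called in any comparison by DESeq2 or edgeR, with 0 of 2 tested at an unadjusted p under 0.05 between aged and young livers and 1 of 1 tested between aged and middle-aged livers by DESeq2. The part of such cells in the member values was not tested. In bulk tissue, fewer cells of a type and less RNA per cell cannot be told apart.

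A group of 4 genes lies together on mouse chromosome 9 (build GRCm38) within 43.3 kb. In order these are Apoa1 (chr9:46228580-46230466, plus strand), Apoc3 (chr9:46232933-46235636, minus strand), Apoa4 (chr9:46240696-46243459, plus strand) and Apoa5 (chr9:46268633-46271919, plus strand). Apoc1 and Apoe lie on the minus strand of chromosome 7 within 9.71 kb, at chr7:19689481-19692660 and chr7:19696109-19699188. The other members stand apart, Apoa2 at chr1:171225054-171226379 (plus), Apob at chr12:7977648-8016835 (plus), Apoh at chr11:108343354-108414396 (plus) and Apom at chr17:35128997-35132050 (minus). All 10 are annotated as protein-coding, and every value below is a sum over the exons of a gene.

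The start regions of 3 chromosome 9 neighbours are shown because these genes did not follow one pattern with age: Apoa4 and Apoa5 were higher in the aged livers and Apoa1 was not. Each line is the RefSeq plus-strand window (GRCm38.p6) from 250 bases before to 50 bases after an annotated start site, at chr9:46240594-46240893 for Apoa4, chr9:46268383-46268682 for Apoa5 and chr9:46228380-46228679 for Apoa1. The start site of the Apoa5 window is also the start of its GENCODE gene at 46268633. The GENCODE genes of Apoa4 and Apoa1 begin upstream of the start sites of their windows, at 46240696 and 46228580. Most of the Apoa4 window therefore lies inside the gene, so the 3 windows do not cover like regions. Capitals mark matches to the motifs searched.

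Apoa4: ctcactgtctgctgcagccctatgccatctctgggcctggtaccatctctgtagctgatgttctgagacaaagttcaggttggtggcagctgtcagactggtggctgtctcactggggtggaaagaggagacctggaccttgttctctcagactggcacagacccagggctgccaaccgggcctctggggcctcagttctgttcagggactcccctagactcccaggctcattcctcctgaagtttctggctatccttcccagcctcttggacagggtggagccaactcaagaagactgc

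Apoa5: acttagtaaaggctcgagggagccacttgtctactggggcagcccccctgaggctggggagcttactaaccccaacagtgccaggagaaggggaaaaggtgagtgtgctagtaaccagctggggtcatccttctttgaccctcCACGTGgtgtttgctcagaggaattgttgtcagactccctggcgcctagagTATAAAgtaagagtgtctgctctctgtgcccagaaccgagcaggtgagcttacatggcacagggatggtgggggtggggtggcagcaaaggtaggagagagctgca

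Apoa1: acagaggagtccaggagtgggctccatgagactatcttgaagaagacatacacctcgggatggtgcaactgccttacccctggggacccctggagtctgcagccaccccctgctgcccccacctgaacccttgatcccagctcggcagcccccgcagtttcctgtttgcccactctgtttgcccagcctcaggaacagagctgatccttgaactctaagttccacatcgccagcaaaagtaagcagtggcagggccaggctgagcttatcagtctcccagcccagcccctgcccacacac

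A set of 8 motifs was searched on both strands in all 32851 RefSeq windows of this length. The Apoa5 window held 1 E-box (CACGTG), which is present in 7.15% of all windows, and 1 TATA box (TATAAA), present in 13.6%. The first base of the E-box lay at -107 and that of the TATA box at -56 from the start site of the window printed. None of the 8 motifs lay in the windows of Apoa4 and Apoa1, which says only that these letters were not in these 300 bases. Across the 8 members with a window, TATAAA was found for Apoa2, Apoa5, Apob and Apoe. The nuclear receptor half-site AGGTCA (16.3% of all windows) was found for Apoa2 and Apoh, and the HNF1 half-site GTTAAT (7.1%) for Apoe. The CCAAT box (CCAAT, 37.4%) and the CRE half-site (TGACG, 20.8%) were found for Apoa2. The HNF4 site CAAAGTCCA (0.475%) and the D-box TTANGTAA (2.32%) were in no window of a member. A member with several annotated starts was counted once if any of its windows held the motif, whereas the shares are per window. The Apoe window that spans the GENCODE start of the gene (chr7:19699139-19699438) held no motif. For Apoa2 the AGGTCA match lay in a window upstream of the gene (chr1:171221314-171221613), and the TATAAA match at -212 in the other. Apoc1 and Apoc3 had no window in the table.

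Apolipoprotein mRNAs were among the most abundant of the liver. By mean normalised count, meaning reads divided by a size factor that sets the typical gene of each library equal, Apoe ranked 2 of the 28449 genes with any count, Apoa1 ranked 8, Apoa2 ranked 15 and Apob ranked 26. The lowest member, Apoa4, ranked 1667. Together the 10 mRNAs took 5.13% ± 0.404 (SD, n = 4) of all gene counts in the young, 5.548% ± 0.224 in the middle-aged and 5.976% ± 0.627 in the aged livers. The single livers ran from 4.835% (Wilson interval at 95%, 4.821% to 4.85%, counting error only) to 5.724% in the young, from 5.319% to 5.762% in the middle-aged and from 5.426% to 6.828% in the aged group, so the ages overlapped. Mitochondrially encoded genes took 5.481% to 19.16% of the counts of a library, most in young replicate 2, and with these genes left out the 3 shares were 5.821%, 5.999% and 6.39%. No test was made on the sum, and Apoe alone supplied 2.12% of all counts in young replicate 2.

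Levels of different genes were set in order per kb of exonic length. Apoe had the highest mean over the 12 livers, with 121826 ± 16270 normalised counts per kb (SD, n = 12). Apoa2 followed with 112587 ± 12103, and the ranges of these genes overlapped, with Apoe above Apoa2 in 9 of 12 livers. Apoa1 came next with 76186 ± 14999, below Apoa2 in 12 of 12 livers although their ranges overlapped. The 3 most abundant mRNAs therefore encode the receptor ligand Apoe and the main structural proteins of HDL. Apoc1 reached 32513 ± 4473 per kb and overlapped neither Apoa1 nor the genes below it. Apoh (12541 ± 1053) and Apoc3 (12419 ± 1769) could not be ordered, with Apoh higher in 7 of 12 livers, and they changed places when the longest transcript replaced the union of exons. Apob had 3167 ± 577 per kb, Apoa5 2654 ± 642 and Apom 1971 ± 539, with overlap between each pair of neighbours in that order. Apoa4 was lowest with 406.1 ± 161 per kb of its full exonic length, and its highest liver lay under the lowest liver of Apom. Annotation on the other strand covers 69.8% of the exonic bases of Apoa4 and 20.8% of those of Apoa5. If reads on such bases went uncounted, the levels per kb of both genes were read too low, which was not tested.

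**Figure D1:**
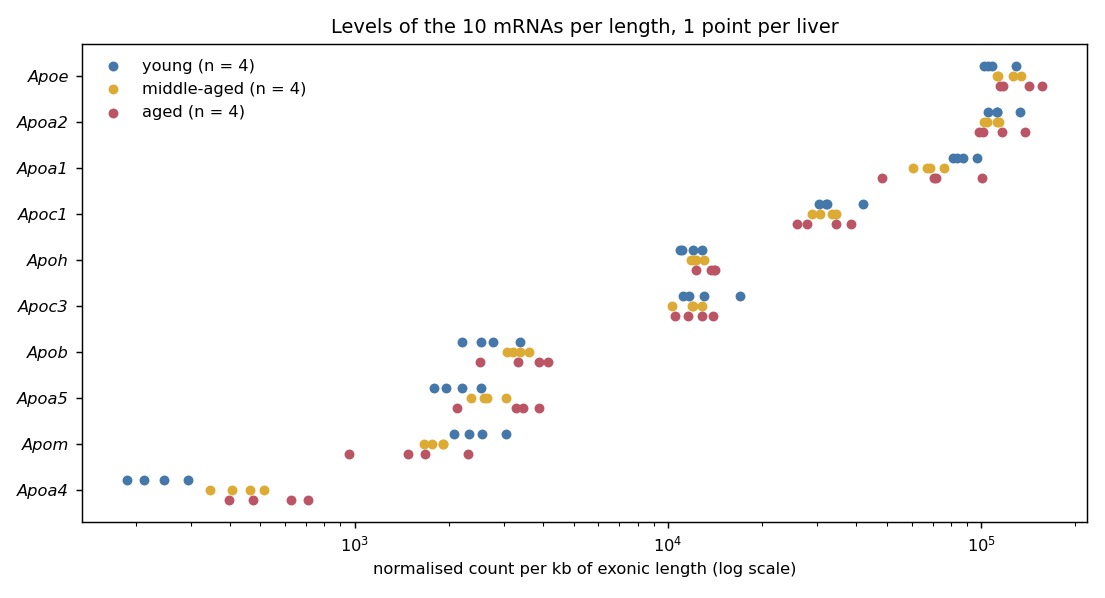
Normalised count per kb of exonic length (horizontal, log scale) of the 10 mRNAs in each liver, 1 point per liver, coloured by age (n = 4 each). Genes are ordered by their mean over 12 livers, from Apoe at 121826 to Apoa4 at 406.1 per kb.

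The differences between ages were tested by DESeq2 over all genes with a count. The p-values were adjusted by the Benjamini-Hochberg procedure over the genes kept by its independent filtering, with a threshold of 0.05. Without that filtering, the adjusted p between aged and young livers was 0.044 for Apoa5 and 0.106 for Apom by DESeq2. Between aged and young livers 2 of the 10 members passed, Apoa4 and Apoa5, both higher with age. This compares with 3.58% of the 13527 genes tested and with 10.1% of the 1218 abundant genes (mean normalised count 1000 or more), the class that holds every member but Apoa4. Between middle-aged and young livers 1 member passed, Apoa4, against 6.41% of all genes tested and 14.4% of the abundant ones. Between aged and middle-aged livers no member passed by DESeq2 or by edgeR, none had an unadjusted p under 0.05 by DESeq2, and the background was 1.14% of all genes tested and 2.22% of the abundant ones. In the likelihood ratio test across the 3 ages, Apoa4 and Apoa5 passed, against 6.96% and 17.1%. Of the remaining 8 members, 4 had an unadjusted p under 0.05 between aged and young livers, namely Apob, Apoe, Apoh and Apom. The share of all genes at an unadjusted p under 0.05 is not given, so such counts, here and for the lists, have no background beside them.

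The members did not move as a block. Between aged and young livers 5 had fitted values above 0 and 5 below, with a median log2 difference of 0.09 beside 0.00 over all genes tested. Between middle-aged and young livers the split was again 5 and 5, with a median of -0.01 beside 0.01. Between aged and middle-aged livers 8 were above 0 and 2 below, with a median of 0.08 beside 0.01. Scaling by total gene counts in place of size factors adds 0.12 to every gene between aged and young livers, and with it Apoa2, Apoc1 and Apoc3 also came to lie above 0. The median size of the aged-against-young difference without its sign was 0.26 for the members and 0.15 for the abundant genes.

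**Figure D2:**
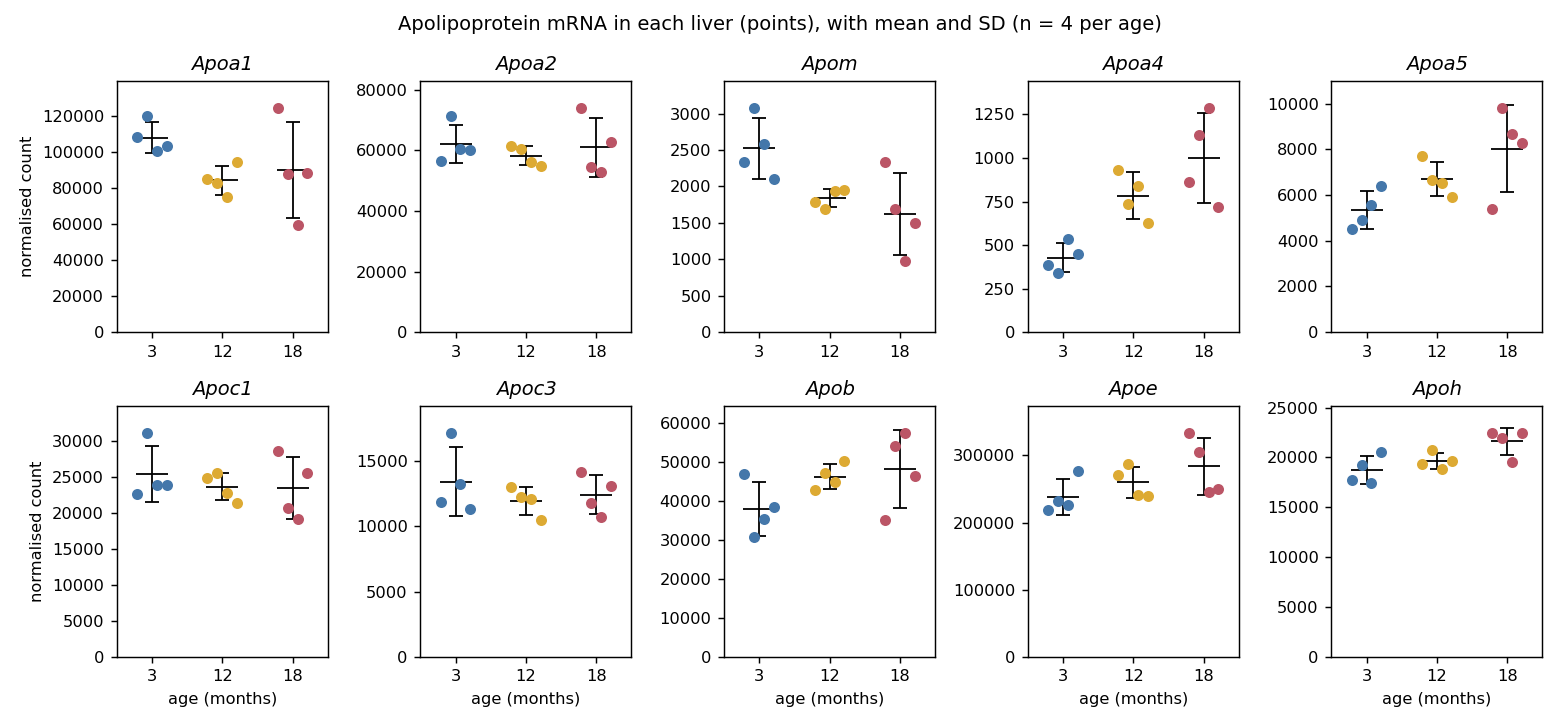
Normalised counts (vertical, from 0, each panel with its own scale) of the 10 mRNAs in each liver at 3, 12 and 18 months, with the mean and SD of the 4 livers. For Apoa4 every aged liver lies above every young one, and aged replicate 1 is the lowest aged liver for Apoa5 and Apob and the highest for Apoa1, Apoa2, Apoc1, Apoc3, Apoe and Apom.

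Apoa4 encodes an exchangeable apolipoprotein of chylomicrons and HDL that the intestine and, in rodents, the liver secrete. Its normalised counts in young replicates 1 to 4 were 385, 341, 534 and 447. In the middle-aged livers they were 933, 734, 841 and 624. In the aged livers they were 862, 1134, 1287 and 720. Every liver past the young age stood above every young liver, while the middle-aged and aged ranges overlapped. The group means were 427 ± 83.7 (SD, n = 4), 783.2 ± 133 and 1001 ± 257. Apoa4 rose 2.34-fold between young and aged livers, a log2 fold change of 1.23 with an SE of 0.20 and an adjusted p of 4.23e-07 by DESeq2. The rise to middle age was 1.83-fold, a log2 fold change of 0.87 with an SE of 0.20 and an adjusted p of 0.000892 by DESeq2. From middle age to 18 months the fitted log2 difference was 0.35, with a 95% interval from -0.03 to 0.74 and an adjusted p of 0.565 by DESeq2. The aged-against-young rise was called in all 23 other analyses run, including edgeR (adjusted p = 0.0076), with fitted values from 1.03 to 1.46. With the livers left out one at a time, it lay between 1.08 and 1.36. The middle-aged rise was lost in replicates 3 and 4 alone (log2 difference 0.57, adjusted p = 0.206 by DESeq2).

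Separation of this kind was set against its background over all genes. Apoa4 was the only member whose aged and young livers did not overlap, against 8.44% of the 8888 genes whose mean normalised count reached 50. Middle-aged and young livers did not overlap for 3 members, Apoa1, Apoa4 and Apom, against 18.3%. No member had separate aged and middle-aged livers, against 6.82%.

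The exons of Apoa4 are shared in part with annotation on the other strand. Of its 1815 exonic bases, 1266 (69.8%) are also covered by Gm10680 and Gm47528 on the minus strand. Gm47528 had 0 to 1 counts per liver, and Gm10680 was not among the genes with any count. For Apoa5, 524 of 2522 exonic bases (20.8%) are covered by the antisense gene Gm47544, which was not among them either. For Gm10680 and Gm47544, a count of 0 and absence from the counting were not told apart. Whether the counting used strand is not given in the sources used here, so reads from the opposite strand of these stretches could not be set apart. Nor could it be told whether reads on these stretches were left out of the counts.

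Apoa5, the most distal gene of the cluster, encodes a scarce plasma protein that promotes the lipolysis of triglyceride-rich particles by lipoprotein lipase. Its normalised counts were 4505, 4917, 5546 and 6404 in young replicates 1 to 4. They were 7690, 6669, 6537 and 5911 in the middle-aged livers. They were 5369, 9809, 8686 and 8268 in the aged livers. Aged replicate 1 lay within the young range and the other 3 aged livers above every young and every middle-aged one. The means were 5343 ± 827 (SD, n = 4), 6702 ± 737 and 8033 ± 1891. Apoa5 rose 1.5-fold between young and aged livers, a log2 fold change of 0.59 with an SE of 0.17 and an adjusted p of 0.0209 by DESeq2. The fitted log2 difference was 0.33 from young to middle age (adjusted p = 0.236) and 0.26 from middle age to 18 months (adjusted p = 0.681) in the same DESeq2 fit. It was called in 15 of 23 other analyses. By edgeR the aged-against-young difference was 0.59 with an adjusted p of 0.0958. The call was also lost in replicates 1 and 2 alone (adjusted p = 0.178), with only the ages compared in the fit (adjusted p = 0.0555) and without young replicate 1, young replicate 2, aged replicate 2, aged replicate 3 or aged replicate 4, with DESeq2 adjusted p from 0.072 to 0.119 and log2 values from 0.48 to 0.57.

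**Figure D3:**
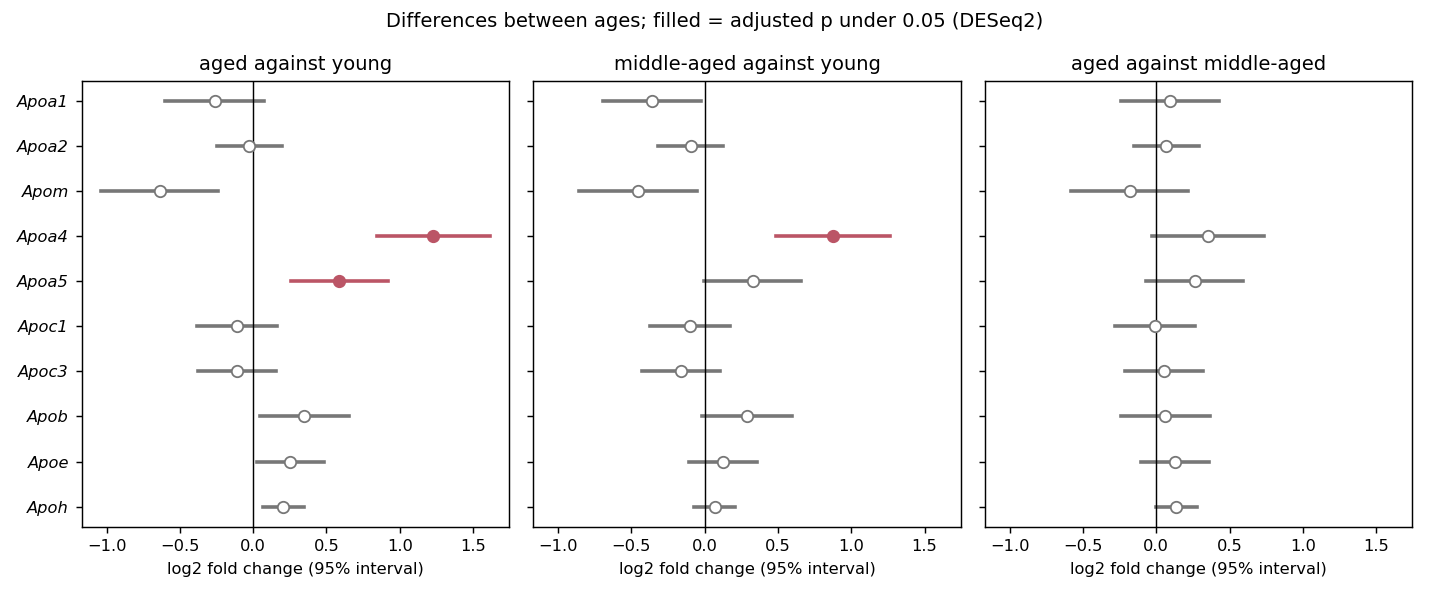
Log2 fold change of each member with its 95% interval in the 3 comparisons of ages (DESeq2, 12 livers in 1 fit). Filled points have an adjusted p under 0.05: Apoa4 at 1.23 and Apoa5 at 0.59 for aged against young, and Apoa4 at 0.87 for middle-aged against young.

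Apoc3, which lies between Apoa1 and Apoa4, encodes an inhibitor of lipoprotein lipase and of remnant uptake. Its normalised counts ran from 11347 to 17180 in the young, 10481 to 13021 in the middle-aged and 10709 to 14124 in the aged livers, with overlap between all ages. The log2 difference between aged and young livers was -0.11, with a 95% interval from -0.38 to 0.16 (adjusted p = 0.778 by DESeq2). The difference between middle-aged and young livers was -0.16 (adjusted p = 0.521 by DESeq2).

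Ratios within a library do not depend on the size factors, so the 4 neighbours were also compared with each other. The reads of Apoa4 per read of Apoa1 were 0.00284 to 0.00531 in the young, 0.00661 to 0.0112 in the middle-aged and 0.00692 to 0.0216 in the aged livers. Against Apoc3, Apoa4 gave 0.0199 to 0.0404 in the young, 0.0596 to 0.0717 in the middle-aged and 0.0551 to 0.12 in the aged livers. For both ratios the young livers lay under all the others. Apoa5 per read of Apoc3 gave 0.286 to 0.564, 0.54 to 0.591 and 0.38 to 0.833, with overlap between all ages. Apoa1 per read of Apoc3 was 8.22 ± 1.09 (SD, n = 4), 7.13 ± 1.28 and 7.15 ± 1.36, and its ranges overlapped too. Apoa4 per read of Apoa5 gave 0.0694 to 0.0963 in the young, 0.106 to 0.129 in the middle-aged and 0.0871 to 0.161 in the aged livers, so the aged range reached into the young one. Apoa5 per read of Apoa1 gave 0.041 to 0.062, 0.0626 to 0.0906 and 0.0431 to 0.146, with the same overlap of aged and young livers. Within these 43.3 kb Apoa4 separated young from aged livers against Apoa1 and Apoc3, as it did on its own, but not against Apoa5. The ratios are not free of the length tilt of the libraries described below. Apoa4 and Apoa5 correlated with that tilt at -0.72 and -0.70, but Apoa1 and Apoc3 at 0.80 and 0.82. The part of the tilt in the ratios was not tested, and no background over other pairs of genes was made.

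**Figure D4:**
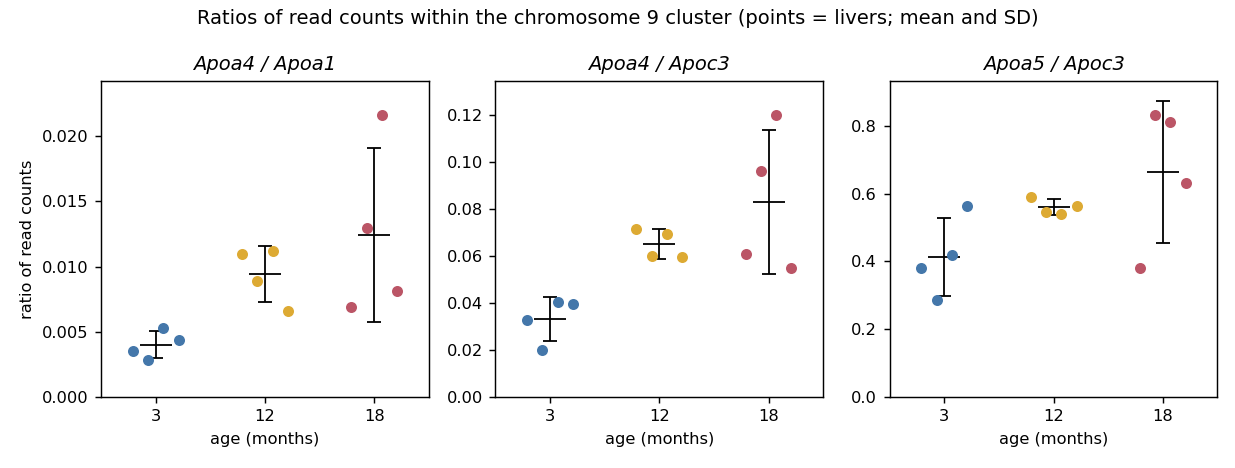
Ratio of read counts (vertical, from 0) of Apoa4 to Apoa1, Apoa4 to Apoc3 and Apoa5 to Apoc3 in each liver at 3, 12 and 18 months, with the mean and SD of the 4 livers. For both Apoa4 ratios every young liver lies below every older liver, with 0.00531 as the highest young value against Apoa1 and 0.0404 against Apoc3.

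Apoa1 encodes the main protein of HDL and the activator of the cholesterol-esterifying enzyme Lcat. Its normalised counts were 108515, 120050, 100660 and 103240 in the young livers. They were 84916, 82971, 74987 and 94395 in the middle-aged livers. They were 124574, 87645, 59484 and 88546 in the aged livers. All 4 middle-aged livers lay below all 4 young ones, while the aged livers held both the highest and the lowest value of the 12. The log2 difference was -0.36 between middle-aged and young livers (SE 0.17, 95% interval from -0.69 to -0.02, adjusted p = 0.192 by DESeq2) and -0.26 between aged and young livers (adjusted p = 0.491 by DESeq2). With only young and middle-aged livers in the fit, the former was -0.36 with an adjusted p of 0.00183 by DESeq2, and with offsets for exonic length it was -0.18 with an adjusted p of 0.479. Without aged replicate 1, the aged-against-young difference was -0.46 with an adjusted p of 0.0131 by DESeq2. Apoa1 followed the length tilt of the libraries described below (r = 0.80), and that library had the highest tilt of the aged ones (0.28). The part of the tilt in that call was not tested.

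Apoa2, the second protein of HDL, ran from 56541 to 71333 normalised counts in the young, 54940 to 61325 in the middle-aged and 52951 to 74022 in the aged livers. The age means lay close together, at 62151 ± 6382 (SD, n = 4), 58210 ± 3144 and 61015 ± 9659. The log2 difference between aged and young livers was -0.03 with a 95% interval from -0.25 to 0.19 (adjusted p = 0.947 by DESeq2).

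Apom encodes the HDL protein that carries the lipid mediator sphingosine-1-phosphate. Its normalised counts were 2340, 3078, 2584 and 2098 in the young livers. They were 1793, 1692, 1936 and 1945 in the middle-aged livers. They were 2329, 1695, 974 and 1496 in the aged livers. All middle-aged livers lay below all young ones, and 3 of 4 aged livers did, aged replicate 1 being the exception. The means were 2525 ± 419 (SD, n = 4), 1842 ± 121 and 1624 ± 560. The log2 difference of -0.64 between aged and young livers (SE 0.20, 95% interval from -1.04 to -0.24) missed the threshold with an adjusted p of 0.0504 by DESeq2. It was called in 6 of 23 other analyses, all with values below 0, and among these were the fits without aged replicate 1 (-0.86, adjusted p = 7.75e-05 by DESeq2) and without young replicate 4 (-0.72, adjusted p = 0.0328 by DESeq2). Replicates 1 and 2 and replicates 3 and 4 had different spike-in profiles. With that set as a term Apom was -0.66 (adjusted p = 0.023), with the replicate number as a block -0.67 (adjusted p = 0.0298), in replicates 1 and 2 alone -0.43 (adjusted p = 0.678) and in replicates 3 and 4 alone -0.93 (adjusted p = 1.9e-05), all by DESeq2. With offsets for exonic length it was -0.49 (adjusted p = 0.0551 by DESeq2). By edgeR the adjusted p was 0.126. The difference from young to middle age was -0.46 (adjusted p = 0.161 by DESeq2), and -0.24 (adjusted p = 0.422) with the length offsets. That difference was called in 3 of 23 other analyses, among them the fit with only those ages (-0.46, adjusted p = 0.00331 by DESeq2).

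Apob encodes the single large protein that each VLDL particle is built around. Its normalised counts were 47041, 30718, 35364 and 38440 in the young livers. They were 42787, 47105, 44763 and 50192 in the middle-aged livers. They were 35055, 54059, 57570 and 46388 in the aged livers. The groups overlapped at both ends, since young replicate 1 was among the higher and aged replicate 1 among the lower of the 12 livers. The log2 difference was 0.35 between aged and young livers (SE 0.16, 95% interval from 0.04 to 0.66, adjusted p = 0.218 by DESeq2) and 0.29 between middle-aged and young livers (adjusted p = 0.268 by DESeq2). Without aged replicate 1 the former was 0.48 with an adjusted p of 0.00817 by DESeq2. Apob followed the length tilt of the libraries described below (r = -0.95), and aged replicate 1 had the highest tilt of the aged libraries (0.28). The part of the tilt in that call was not tested, and the value with length offsets is given below.

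Apoe encodes a receptor ligand that drives the clearance of remnants. Its normalised counts were 217956, 231998, 225346 and 276330 in the young livers. They were 271090, 286392, 241474 and 239989 in the middle-aged livers. They were 333928, 304499, 246057 and 250506 in the aged livers. Aged replicates 1 and 2 were the 2 highest of the 12, while aged replicates 3 and 4 lay below young replicate 4. The log2 difference between aged and young livers was 0.25 (SE 0.12, 95% interval from 0.02 to 0.49, adjusted p = 0.244 by DESeq2). By replicate numbers it was 0.51 in replicates 1 and 2 alone (adjusted p = 0.0742) and -0.02 in replicates 3 and 4 alone (adjusted p = 0.99), both by DESeq2.

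Apoc1, the neighbour of Apoe on chromosome 7, encodes a small exchangeable protein that slows particle uptake. It ran from 22656 to 31195 normalised counts in the young, 21452 to 25589 in the middle-aged and 19198 to 28577 in the aged livers. The log2 difference between aged and young livers was -0.11 with a 95% interval from -0.38 to 0.16 (adjusted p = 0.777 by DESeq2). Apoc1 and Apoe, 9.71 kb from end to end, thus had fitted differences of opposite sign, neither of which passed the test, and scaling by total gene counts brought Apoc1 to 0.01.

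Apoh encodes a plasma glycoprotein that binds anionic phospholipids. Its normalised counts were 17748, 19202, 17456 and 20507 in the young livers. They were 19309, 20718, 18894 and 19616 in the middle-aged livers. They were 22447, 21934, 19547 and 22501 in the aged livers. Of the 4 aged livers, 3 lay above every young and every middle-aged liver, and aged replicate 3 lay within both ranges. Apoh was the steadiest member, with a coefficient of variation of 7.53%, 3.98% and 6.46% within the ages. The log2 difference between aged and young livers was 0.21 (SE 0.07, 95% interval from 0.06 to 0.35, adjusted p = 0.0856 by DESeq2). It was called in 4 of 23 other analyses, among them the one without young replicate 4 (0.25, adjusted p = 0.0206 by DESeq2).

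The members differ by far in length, from 537 exonic bases in Apoa2 to 13934 in Apob, and the libraries differed in how short genes read against long ones. This tilt was taken as the median log2 deviation of 182 genes under 1 kb minus that of 3971 genes over 5 kb. It was 0.00, 0.55, 0.22 and 0.14 in the young libraries, -0.09, -0.18, -0.15 and -0.18 in the middle-aged libraries and 0.28, -0.36, -0.34 and 0.03 in the aged libraries. Young libraries thus read short genes higher than middle-aged libraries did, and the aged libraries spread to both sides.

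Over the 12 livers the log2 level of Apob, the longest mRNA, had a Pearson correlation with the tilt of -0.95. Apoa2, the shortest, had one of 0.85, as did Apoc1, and Apoc3 had 0.82, Apoa1 0.80 and Apom 0.79. Apoa4 had -0.72 and Apoa5 -0.70, while Apoe (-0.14) and Apoh (-0.12) varied little with it. These are descriptions over 12 points that share their libraries and size factors, and they include the differences between ages. With offsets fitted to exonic length, an analysis chosen after these values were seen, Apoa4 rose by 1.33 between young and aged livers (adjusted p = 7.28e-07) and by 0.99 between young and middle age (adjusted p = 0.000628), both by DESeq2. Apoa5 rose by 0.65 between young and aged livers in that fit (adjusted p = 0.0135 by DESeq2). In the same fit 5 members were called between aged and young livers, with Apoa2 (0.22), Apoe (0.32) and Apoh (0.31) beside Apoa4 and Apoa5, and Apob was 0.26 (adjusted p = 0.137 by DESeq2).

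**Figure D5:**
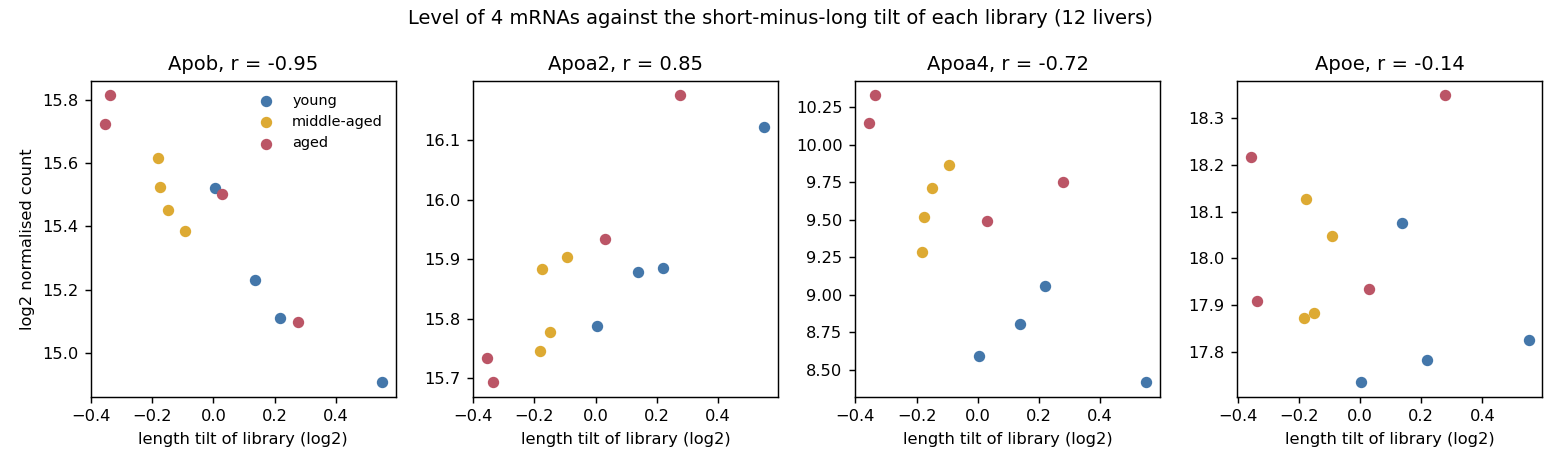
Log2 normalised count (vertical, each panel with its own scale) of Apob, Apoa2, Apoa4 and Apoe in 12 livers against the length tilt of the library (horizontal, log2, short genes minus long genes), coloured by age. Apob is lower where the tilt is higher (r = -0.95) and Apoa2 is higher (r = 0.85), while for Apoa4 (r = -0.72) the young livers lie below all others whatever their tilt.

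Some pairs of members varied together from liver to liver, and no grouping was computed. Apoa2 and Apoc1 had a Pearson correlation of 0.95 over the 12 livers and of 0.97 after the mean of each age was taken out. Apoc3 varied with both, at 0.86 with Apoa2 and 0.89 with Apoc1. Apob ran opposite to Apoa2, at -0.84 and -0.94 within ages. Apoa1 went with Apom (0.87), Apoa4 with Apoa5 (0.80) and Apoe with Apoh (0.80). These pairs were not separate from each other. Apoa1 also went with Apoa2 (0.717) and Apom with Apoc1 (0.656), while Apom ran opposite to Apob (-0.825) and Apoa5 (-0.796). Within ages the value for Apoa4 and Apoa5 was 0.55. All of these pairs share libraries, scaling and the length tilt given above, and no p was computed.

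Genes whose pattern over the 12 livers was most like that of Apoa4 were taken from 8887 genes. The correlations were taken on levels that include the differences between ages and the length tilt of the libraries. No p was computed, and no value within ages was taken for the 5 highest and 3 lowest. The 5 highest correlations were with Smarcc1 (0.94), Ildr2 (0.91), Nfe2l1 (0.91), Pip4k2b (0.90) and Heca (0.90). The 3 lowest were with the major urinary protein genes Mup-ps20 (-0.94) and Mup14 (-0.91) and with Ppia (-0.91), the gene of cyclophilin A. Apoa5, the gene's neighbour, had 0.80.

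Other genes of lipoprotein metabolism were read from lists, with calls by DESeq2 over all genes. Among 20 other apolipoproteins and HDL-associated proteins, 15 were tested and none was called between aged and young livers by DESeq2 or edgeR, with an unadjusted p under 0.05 for 5 by DESeq2. Between middle-aged and young livers 3 fell, the acute-phase HDL proteins Saa1 (log2 fold change -2.97, adjusted p = 0.0021), Saa2 (-2.90, adjusted p = 0.00967) and Saa4 (-0.78, adjusted p = 0.0286), and edgeR called 1 gene of the list. Apoc4 was -0.37 between aged and young livers (adjusted p = 0.186) and Apof, an inhibitor of lipid transfer, -0.12 (adjusted p = 0.459). Apoc2, the lipase activator, had 0 to 7 counts per liver and was not tested. In the annotation it shares 646 of its 813 exonic bases (79.5%) with Apoc4 on the same strand, which had 6441 to 9472 counts, so its level could not be read from this table.

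None of the 20 genes of particle assembly and secretion was called in any comparison by DESeq2 or edgeR. By unadjusted DESeq2 p under 0.05 there were 2 between aged and young, 5 between middle-aged and young and 4 between aged and middle-aged livers. Mttp, which loads triglyceride onto apolipoprotein B, was 0.22 between aged and young livers (SE 0.17, adjusted p = 0.593 by DESeq2). None of the 3 genes of Apob mRNA editing was called by either tool, with 0, 2 and 1 at an unadjusted p under 0.05 in the same order, the editing enzyme Apobec1 being -0.37 between aged and young livers (adjusted p = 0.558 by DESeq2).

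Among 15 lipases and remodelling factors of plasma, none was called between aged and young livers by DESeq2 or edgeR (5 at an unadjusted p under 0.05 by DESeq2), and 3 rose from young to middle age, 1 of the list by edgeR. Among these were the phospholipid-remodelling enzyme Lpcat3 (0.50, adjusted p = 0.0132 by DESeq2) and the protease Mbtps1 (0.26, adjusted p = 0.0368 by DESeq2). Between aged and young livers Lcat was 0.15 (adjusted p = 0.392 by DESeq2) and the hepatic lipase gene Lipc 0.28 (adjusted p = 0.152 by DESeq2).

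Of the receptors and uptake genes, 16 were tested between aged and young livers, with 2 called by DESeq2 and none by edgeR. The fatty acid translocase Cd36 rose (1.74, adjusted p = 0.016 by DESeq2) and Atp5b, a subunit of ATP synthase listed as an HDL-binding protein, fell (-0.22, adjusted p = 0.000549 by DESeq2). From young to middle age 4 of 15 rose, and edgeR called 2 of the list. Among the 4 were Sdc1 (0.45, adjusted p = 0.000468 by DESeq2), Lrp1 (0.43, adjusted p = 0.0181) and Lrp6 (0.49, adjusted p = 0.0402). The HDL receptor Scarb1 was -0.14 between aged and young livers (adjusted p = 0.689 by DESeq2).

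Among 11 genes of sterol efflux and lipidation, Lipa (0.61, adjusted p = 0.000464 by DESeq2) and Soat2 (0.66, adjusted p = 0.000566) rose between young and aged livers. Lipa is the lysosomal acid lipase and Soat2 the cholesterol esterifying enzyme of hepatocytes. Both also rose to middle age, with 0.44 and 0.48 (adjusted p = 0.0194 for each by DESeq2), together with the lysosomal cholesterol exporter Npc1 (0.65, adjusted p = 0.000783). By edgeR 2 genes of this list were called for aged against young livers and 1 for middle-aged against young. Abca1, which lipidates apolipoprotein A-I, was 0.07 between aged and young livers (adjusted p = 0.915 by DESeq2).

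Of 34 transcription regulators of apolipoprotein genes, 1 was called between aged and young livers, the orphan receptor Nr2f2 (0.48, adjusted p = 0.00664 by DESeq2). From young to middle age 5 of 33 rose (1 of the list by edgeR), among them Nr2f2 (0.56, adjusted p = 0.000642 by DESeq2), Srebf1 (0.81, adjusted p = 0.00382), Nr5a2 (0.45, adjusted p = 0.0132) and the clock repressor Nr1d2 (0.66, adjusted p = 0.015). Between middle age and 18 months Nr1d2 fell by 1.05 on the log2 scale (adjusted p = 3.60e-05 by DESeq2). An unadjusted p under 0.05 by DESeq2 was found for 12 regulators between aged and young livers and for 12 between middle-aged and young livers. Between aged and middle-aged livers it was found for 4. Hnf4a, Nr1h3 and Creb3l3, named whatever their values, were not called between aged and young livers. Their log2 differences were -0.10 (adjusted p = 0.686 by DESeq2), -0.19 (adjusted p = 0.37) and -0.03 (adjusted p = 0.956). Nr1d2 was the only gene of the 7 lists that passed between aged and middle-aged livers by DESeq2, and edgeR called 1 gene of the regulators and none of the other 6 lists.

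Markers of other cells moved with age in part. Of 5 erythroid markers, 2 (Alas2 and Hbb-bs) were lower in aged than in young livers by DESeq2, and their summed level was 2421 to 7879 CPM in the young, 1388 to 5518 in the middle-aged and 1031 to 2260 in the aged livers. Of 8 Kupffer cell and macrophage markers 1 was higher, the scavenger receptor gene Marco (log2 difference 2.46, adjusted p = 0.0178 by DESeq2), while the median of the 8 was -0.08. Their summed level was 305.9 to 488.9, 283.3 to 390.4 and 364.6 to 562.6. Of 6 biliary markers Sox9 was higher in aged than in young livers (0.86, adjusted p = 0.0169 by DESeq2) and than in middle-aged livers (0.95, adjusted p = 0.0117). The other biliary markers tested lay below 0 in both comparisons. The median was -0.105 over the 5 tested between aged and young livers. Summed, the 6 markers gave 28.18 to 36.44, 13.01 to 49.03 and 24.35 to 47.57. By edgeR none of the erythroid, Kupffer cell or biliary markers was called between any pair of ages. Their part in the member values was not tested.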

How the data were processed

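Liver RNA-seq of 12 mice was analysed from 1 deposited table of read counts, which the authors left unnormalised, with 53465 genes and 92 spike-in rows. The submitters' processing notes name STAR 2.5.2b, featureCounts, DESeq2 1.26.0 and build GRCm38. The labels describe a strand-specific kit for young and old livers, as do the study's methods for animals of its own cohort. For 3-age liver RNA-seq the study's text names a public atlas, so the library preparation is not settled. Spike-in rows were left out. Genes with at least 1 count (28449) entered DESeq2 1.42.0 (R 4.3.3) with median-of-ratios size factors and age as the only term. A Wald test was made per pair of ages and a likelihood ratio test across ages. The p-values were adjusted over the genes kept by default independent filtering, with adjusted p under 0.05 called. These p-values set a difference between ages against the spread between livers of an age, which also holds technical differences between libraries. Depth was 8124312 to 10527159 gene counts per liver. Alternatives were edgeR 4.0.16, other scalings and filters, the replicate number as a block, subsets of livers, and length offsets added after seeing the data. The fits were tested on simulated data. Replicates 1 and 2 and replicates 3 and 4 had different spike-in profiles over 31 spike-ins (correlation at least 0.997 within and at most 0.925 between), and the spike-in set was tried as a term. No 2 livers of an age were alike within sampling noise (smallest chi-square per gene 11.2). Named genes were all 10 members, up to 4 called genes per list with the lowest adjusted p, a fixed set of lipoprotein genes whatever their values (some not reported here), and the genes most and least like the member with the lowest likelihood ratio p. The members and lists were chosen with earlier results of these data known.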

Additional observations from a re-analysis of the deposited data

Results flagged for a closer look

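Apoc1 in young replicate 2 stood apart from the other 3 young livers, with 31195 normalised counts against 22656 to 23884. Its gap to the nearest liver was 0.856 of the range of the group, above Dixon's 95% value for 4 samples. Among 33 groups of 4 livers checked, 1 was marked in this way, and chance marks about 1 in 20 groups, or 1.65 here. The same library had the highest length tilt (0.55), mitochondrial share (19.16%) and spike-in share (10.63%) of the 12, and the part of these in the Apoc1 value was not tested. The spike-in transcripts, whose counts entered no fit, took from 1.589% to 10.63% of the counts of a library, and their lowest share was 1.589%.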

How the results depend on the processing

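The rise of Apoa4 between young and aged livers kept its direction and its call under all 23 alternatives, and the rise to middle age under 22 of 23. The number of members called moved more. Between aged and young livers (2 called) it was 1 by edgeR, 1 in replicates 1 and 2 alone, 1 with only those ages in the fit, 4 in replicates 3 and 4 alone, 4 with total gene counts as size factors and 5 with length offsets. Between middle-aged and young livers (1 called) it was 0 in replicates 3 and 4 alone, 3 with only those ages in the fit and 2 with length offsets. Between aged and middle-aged livers (0 called) it was 2 in replicates 3 and 4 alone, Apoa5 and Apom. Across the 3 ages (2 called) it was 1 by edgeR, 1 without independent filtering and 4 with length offsets. With 1 liver left out at a time, the counts ranged from 1 to 5 for aged against young, from 1 to 3 for middle-aged against young and from 1 to 5 across the 3 ages. The high counts of 5, 3 and 5 came without aged replicate 1, and without young replicate 4 there were 4 for aged against young and across ages. Without aged replicate 3 there were 2 for middle-aged against young and 3 across ages. Counts of 1 for aged against young came without young replicate 1, young replicate 2, aged replicate 2 or aged replicate 4, and across ages also without young replicate 3 or middle-aged replicates 2, 3 or 4. The cause was not tested.

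Some values that were not called with 12 livers and size factors changed sign. With total gene counts, which add 0.12 to every gene for aged against young and 0.11 for middle-aged against young, Apoa2, Apoc1 and Apoc3 were 0.0919, 0.00921 and 0.016 for aged against young, and Apoa2 and Apoc1 were 0.0207 and 0.0169 for middle-aged against young. With length offsets the first 3 were 0.217 (Apoa2, adjusted p = 0.0069 by DESeq2), 0.0899 and 0.0648, and for middle-aged against young 0.194 (Apoa2, adjusted p = 0.017 by DESeq2), 0.152 and 0.0514. In replicates 1 and 2 alone Apoa2 was 0.00981 for aged against young, and Apob and Apom were -0.00876 and 0.209 for aged against middle-aged. In replicates 3 and 4 alone Apoe was -0.0179 for aged against young and -0.0696 for middle-aged against young, and Apoa1 and Apoc1 were -0.187 and 0.0248 for aged against middle-aged. With 1 liver left out at a time, values for aged against young ranged from -0.133 to 0.0458 (Apoa2), -0.22 to 0.00168 (Apoc1) and -0.18 to 0.033 (Apoc3). Apoc1 ranged from -0.152 to 0.0127 for middle-aged against young. For aged against middle-aged the ranges were -0.118 to 0.0747 (Apoc1), -0.0129 to 0.119 (Apoc3), -0.102 to 0.249 (Apoa1), -0.0387 to 0.13 (Apoa2) and -0.0329 to 0.189 (Apob).

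The summed share was 5.821% in young and 5.999% in middle-aged livers without mitochondrially encoded genes, and 5.875% in middle-aged livers as a share of the other genes. It ranged from 4.932% to 5.229% (young) and from 5.477% to 5.625% (middle-aged) with 1 liver left out. Per kb of the longest transcript Apoe had 184989, Apoc1 45470, Apoh 16798 and Apoc3 17761 normalised counts. Leaving out livers moved the correlation of Apoa1 with Apom from 0.757 to 0.925 and that of Apoe with Apoh from 0.738 to 0.936. The replicate numbers did not pair the livers, with correlations of the deviations from -0.303 to 0.159 over 12 pairs. With the replicate number as a block, 3 members were called between aged and young livers (Apom at -0.67 beside Apoa4 and Apoa5), 1 between middle-aged and young and 1 across ages. With the spike-in set as a term, 3 members were called between aged and young livers and 3 across ages (Apoa4, Apoa5 and Apom in both).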
